A study of Homo sapiens with 8 samples.

Results

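Levels of 10 genes of Wnt signalling and of intestinal stem cells were measured by RNA sequencing in colon cancer cells that differ in sensitivity to 5-fluorouracil (5-FU). The genes were LGR5, RNF43, ZNRF3, NKD1, APC, AXIN2, TCF7L2, LEF1, ASCL2 and MYC, listed by symbol and matched to their Ensembl identifiers. They are 10 of the 64253 genes counted, and all 10 passed the filter on low counts that left 20305 genes for testing. HCT-8 is a line of human colon cancer cells sensitive to 5-FU. Its pair, HCT-8/FU, resists the drug. Both were sequenced in unconditioned medium. HCT-8 cells were also sequenced in conditioned medium (CM) that the named cells had been kept in for 48 h, and these groups are called HCT-8 CM (medium from HCT-8) and HCT-8/FU CM (medium from HCT-8/FU) here. Each of the 4 groups had 2 replicates. The sample labels name Ham's F12 as the culture medium and the study's methods name RPMI, and neither gives the time that cells spent in CM. Resistance is thus represented by 1 line, HCT-8/FU, and both CM groups are HCT-8 cells. Nothing in the labels says that the replicates came from separate cultures, so p-values measure only the spread between these libraries.

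In canonical Wnt signalling, a secreted Wnt ligand binds a Frizzled receptor and an LRP co-receptor, which stops a cytoplasmic destruction complex from marking beta-catenin for degradation. Beta-catenin then enters the nucleus and, with TCF and LEF proteins on DNA, turns on target genes, several of which act back as inhibitors of the pathway. In the intestinal crypt this signal maintains stem cells marked by LGR5, and loss of APC, a scaffold of the destruction complex, is a common early event in colorectal tumours.

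Counts on genes per library ranged from 5804124 to 34881349. Records that were not aligned made up 19.96% to 29.6% of the records in 3 libraries (HCT-8 replicate 1, HCT-8/FU replicate 2 and HCT-8 CM replicate 1) and 3.58% to 4.43% in the other 5, so that both replicates of HCT-8/FU CM, and 1 replicate of each other group, belong to the latter. Of 9 markers of colon epithelium, 8 had a mean of at least 1 CPM (counts-per-million), and the summed level of the 9, most of it the keratins KRT8 and KRT18, was 8630.9 to 10628 CPM. Of these markers, 3 were called higher in HCT-8/FU than in HCT-8 (CDX1, VIL1 and EPCAM). Against HCT-8, 3 were called higher in HCT-8 CM (CDX1, VIL1 and CDX2) and 2 in HCT-8/FU CM (CDX1 and VIL1). Between the conditioned media 0 were, and 0 were called lower in any of the 4 comparisons. Of all tested genes, 13.2%, 3.86%, 7.16% and 7.97% were called higher in these comparisons, and 8.12%, 4.29%, 3.28% and 1.28% lower. VIL1, an actin-binding protein of the brush border, had group means of 154.6 CPM in HCT-8, 299.3 in resistant HCT-8/FU, 269.4 in HCT-8 CM and 247.8 in HCT-8/FU CM. Not all of the 9 shared that order. CDH1 was highest in HCT-8 (1101 CPM), with 836.5 in HCT-8/FU, 993.8 in HCT-8 CM and 856.4 in HCT-8/FU CM. KRT18 was lowest in HCT-8/FU (1923 CPM, against 2258 in HCT-8). Several Wnt genes below were, as VIL1 was, lowest in HCT-8, and the part of these markers in their changes was not tested. Of 8 markers of stromal, endothelial and immune cells, COL1A2, PTPRC and CD3E were at 0 in all libraries. A mean of at least 1 CPM was reached by 3: COL1A1 (8.19 to 13.8 CPM), PDGFRB (4.35 to 9.04 CPM) and PECAM1. The summed level of the 8 was 14.5 to 24.5 CPM, lowest in HCT-8/FU (14.5 and 19.0 CPM) and highest in HCT-8 CM (21.8 and 24.5 CPM). Of the 4 that were tested, 1 was called higher in HCT-8 CM than in HCT-8, where 3.86% of all genes were.

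APC lies on chromosome 5 from 112707518 to 112846239 (GRCh38, plus strand) and TCF7L2 on chromosome 10 from 112950247 to 113167678 (plus strand). RefSeq promoter windows of 300 bases, 250 before to 50 after a transcription start, were at hand for 4 of the genes (APC, LEF1, RNF43 and TCF7L2), with 8 starts in all. The core letters bound by TCF and LEF proteins (CTTTG followed by AA, AT, TA or TT, on either strand) were found in 1 of the 8 windows, against 13.8% of 35116 windows of the same length. That window precedes the second start of TCF7L2, inside an intron of the gene. Shown are the 100 bases before the first RefSeq start of APC, the member that was called in the most comparisons between groups. That RefSeq start of APC lies upstream of the gene start given above. The same stretch of TCF7L2, whose level varied little, and the stretch of TCF7L2 that holds the match are also shown. Matching letters are in capitals (RefSeq, GRCh38.p14, plus strand).
APC, chr5:112707398-112707497: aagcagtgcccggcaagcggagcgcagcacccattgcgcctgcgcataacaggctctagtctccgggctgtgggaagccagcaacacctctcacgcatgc
TCF7L2, chr10:112950147-112950246: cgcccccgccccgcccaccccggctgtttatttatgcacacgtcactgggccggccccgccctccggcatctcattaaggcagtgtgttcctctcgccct
TCF7L2, chr10:113126488-113126517: caaaatatcaggCTTTGTTcttttgattga
The match starts 133 bases before that start site. It is a match of letters only, and binding was not measured.

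Levels are given as CPM after scaling of the library totals by the trimmed mean of M-values (TMM), which corrects for differences in composition between libraries. Adjusted p-values come from the quasi-likelihood test of edgeR, with Benjamini-Hochberg adjustment over the 20305 genes tested. A gene was called where its adjusted p, or false discovery rate (FDR), was at most 0.05 and its log2 fold change was at least 0.58 in either direction, the thresholds of the study. Errors of log2 fold changes are standard errors (SE), and each group has n = 2.

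In HCT-8/FU compared with HCT-8, 6 of the 10 genes were higher (LGR5, APC, ASCL2, AXIN2, NKD1 and RNF43) and 0 were lower, where 13.2% of all tested genes were called higher and 8.12% lower. The median log2 fold change of the 10 was 0.73, against 0.0082 over all genes. In HCT-8 cells in HCT-8/FU CM compared with those in HCT-8 CM, APC was called higher and 0 genes were called lower, where 7.97% of all genes were called higher and 1.28% lower. The median was 0.076, against −0.059 over all genes. In bulk RNA, a change in the number of cells that express a gene cannot be told apart from a change in the RNA per cell.

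Medium conditioned by HCT-8 cells itself went with changes in these genes. In HCT-8 CM compared with HCT-8 in unconditioned medium, ASCL2, LGR5 and AXIN2 were higher and APC was lower, where 3.86% of all genes were called higher and 4.29% lower. In HCT-8/FU CM compared with HCT-8, ASCL2, LGR5, APC and AXIN2 were higher and 0 were lower, where 7.16% were called higher and 3.28% lower. These comparisons share libraries: the HCT-8 libraries serve as the baseline of 3 comparisons, and HCT-8 CM is the baseline of the second comparison and the numerator of the third. The medians of the 10 were 0.44 and 0.43, against 0.014 and 0.015 over all genes.

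**Figure D1:**
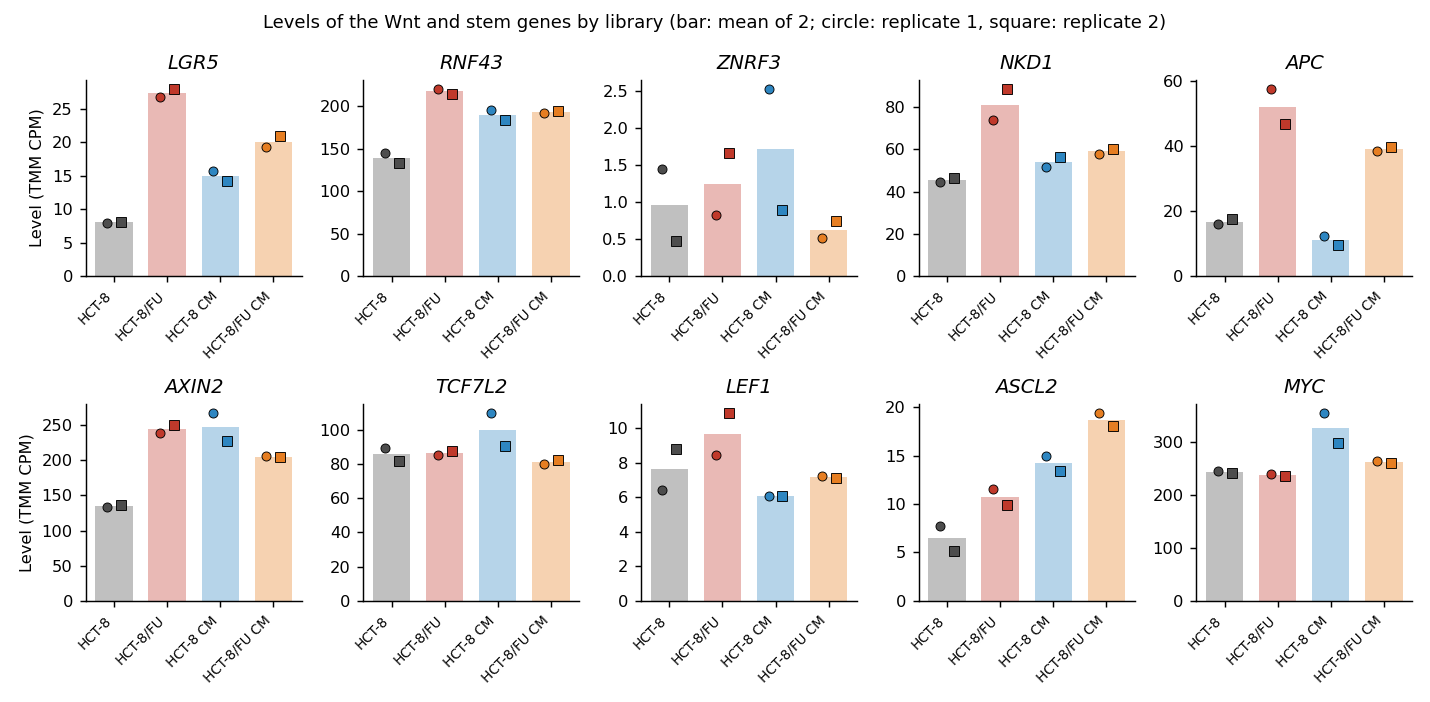
Levels of the 10 genes in TMM-scaled CPM, with a linear axis from 0 in each panel, where bars are means of 2 replicates and symbols are single libraries. LGR5 ranged from 8.03 CPM in HCT-8 to 27.9 CPM in HCT-8/FU, APC was lowest in HCT-8 CM (9.57 and 12.5 CPM), and the replicates of ZNRF3 were spread widely in each group but HCT-8/FU CM.

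LGR5, the receptor for R-spondins that marks crypt base stem cells, separated all 4 groups. The gene (ENSG00000139292) lies on chromosome 12 from 71439798 to 71586310 (GRCh38, plus strand). It was at 8.03 and 8.07 CPM in the HCT-8 replicates, 26.7 and 27.9 in resistant HCT-8/FU, 15.8 and 14.2 in HCT-8 CM, and 19.3 and 20.9 in HCT-8/FU CM. HCT-8 was lowest and HCT-8/FU highest, HCT-8 CM and HCT-8/FU CM lay between them in that order, and no groups overlapped. LGR5 was 3.37-fold higher in HCT-8/FU than in HCT-8 (log2 fold change 1.75 ± 0.139, adjusted p = 2.2e-07, edgeR). It was 1.84-fold higher in HCT-8 CM than in HCT-8 (0.88 ± 0.142, adjusted p = 0.00055) and 2.49-fold higher in HCT-8/FU CM than in HCT-8 (1.32 ± 0.135, adjusted p = 9e-06). Between the conditioned media the difference passed the FDR but lay under the fold threshold (0.44 ± 0.127, adjusted p = 0.024), and with a correction for GC content and length its adjusted p was 0.2.

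RNF43 and ZNRF3 are membrane ubiquitin ligases that remove Frizzled receptors from the cell surface and that R-spondins, through LGR receptors, inhibit. RNF43 was at 145 and 133 CPM in HCT-8, 220.3 and 215 in resistant HCT-8/FU, 196 and 184 in HCT-8 CM, and 192 and 194 in HCT-8/FU CM. HCT-8 lay below and HCT-8/FU above all other libraries, while the conditioned media overlapped. RNF43 was 1.57-fold higher in HCT-8/FU than in HCT-8 (0.65 ± 0.0745, adjusted p = 6.5e-06), a value that fell under the fold threshold without HCT-8 replicate 2 (0.56, adjusted p = 0.0018). It differed from HCT-8 by 0.45 ± 0.0743 in HCT-8 CM (adjusted p = 0.0006) and by 0.48 ± 0.0733 in HCT-8/FU CM (adjusted p = 0.00024), both past the FDR and under the fold threshold. Between the conditioned media the difference was 0.026 ± 0.0725 (adjusted p = 0.85), with a 95% interval from −0.12 to 0.17. In GENCODE 44, 68.4% of RNF43's exonic bases also lie under exons of another gene model on the same strand. That model was not among the genes counted, and its part in the records assigned to RNF43 was not tested.

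ZNRF3 had only 10 to 25 counts per library, the least of the 10 genes. It was at 1.45 and 0.473 CPM in HCT-8, 0.831 and 1.67 in resistant HCT-8/FU, 2.53 and 0.904 in HCT-8 CM, and 0.513 and 0.746 in HCT-8/FU CM. All neighbouring groups overlapped. The 3 libraries with the most records not aligned had 1.45 to 2.53 CPM and the other 5 had 0.473 to 0.904 CPM, and ZNRF3 was the only 1 of the 10 genes with such a split. The difference between the conditioned media was −1.31 ± 0.645 (adjusted p = 0.18), and without HCT-8 CM replicate 2 it was called (−1.99, adjusted p = 0.043). A comparison of ZNRF3 between the groups was limited by this depth.

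NKD1, a cytoplasmic inhibitor that acts on Dishevelled and is itself a Wnt target, was at 44.4 and 46.7 CPM in HCT-8, 73.6 and 88.4 in resistant HCT-8/FU, 51.6 and 56.4 in HCT-8 CM, and 58.0 and 60.4 in HCT-8/FU CM. The groups did not overlap, and the HCT-8/FU replicates lay above the rest. NKD1 was 1.75-fold higher in HCT-8/FU than in HCT-8 (0.81 ± 0.102, adjusted p = 1.7e-05). In HCT-8/FU CM it passed the FDR against HCT-8 under the fold threshold (0.37 ± 0.0993, adjusted p = 0.012), and in HCT-8 CM it did not pass (0.25 ± 0.102, adjusted p = 0.11). Between the conditioned media its difference was 0.13 ± 0.0981 (adjusted p = 0.42).

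The scaffolds of the destruction complex, APC and AXIN2, had different orders of groups. APC was at 15.9 and 17.7 CPM in HCT-8, 57.4 and 46.6 in resistant HCT-8/FU, 12.5 and 9.57 in HCT-8 CM, and 38.5 and 39.6 in HCT-8/FU CM. The order from HCT-8 CM through HCT-8 and HCT-8/FU CM to HCT-8/FU had no overlap. APC was 3.10-fold higher in HCT-8/FU than in HCT-8 (1.63 ± 0.135, adjusted p = 3.1e-07) and 3.67-fold higher in HCT-8/FU CM than in HCT-8 CM (1.88 ± 0.14, adjusted p = 6.5e-07). It was also higher in HCT-8/FU CM than in HCT-8 (1.19 ± 0.131, adjusted p = 1.7e-05). In HCT-8 CM it was lower than in HCT-8 (−0.68 ± 0.151, adjusted p = 0.0051). That last call was lost with the correction for GC content and length (−0.42, adjusted p = 0.062), without HCT-8 replicate 2 (−0.65, adjusted p = 0.079) and without HCT-8 CM replicate 2 (−0.46, adjusted p = 0.094).

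AXIN2, the inducible scaffold that is a widely used readout of beta-catenin activity, lies on chromosome 17 from 65528563 to 65561648 (GRCh38, minus strand). It was at 134 and 137 CPM in HCT-8, 238 and 250.2 in resistant HCT-8/FU, 267 and 227 in HCT-8 CM, and 206 and 204 in HCT-8/FU CM. HCT-8 lay below all other libraries, and HCT-8/FU and HCT-8 CM overlapped at the top. AXIN2 was 1.80-fold higher in HCT-8/FU (0.85 ± 0.0827, adjusted p = 1.4e-06), 1.82-fold higher in HCT-8 CM (0.86 ± 0.0823, adjusted p = 7.8e-06) and 1.52-fold higher in HCT-8/FU CM (0.60 ± 0.0814, adjusted p = 9.1e-05), each against HCT-8. HCT-8/FU CM against HCT-8 CM gave −0.26 ± 0.08 (adjusted p = 0.032), under the fold threshold, and its adjusted p was 0.45 with the correction for GC content and length. Of AXIN2's exonic bases, 25.3% lie under ENSG00000266076 on the same strand, which had 0 to 8 counts per library.

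TCF7L2 and LEF1 are DNA-binding partners of beta-catenin. TCF7L2, the main such factor of intestinal epithelium, was at 89.4 and 81.7 CPM in HCT-8, 85.3 and 87.2 in resistant HCT-8/FU, 109 and 90.6 in HCT-8 CM, and 79.7 and 82.1 in HCT-8/FU CM. Only HCT-8 CM stood apart from its neighbour in the order of means. In HCT-8/FU against HCT-8 the difference was 0.017 ± 0.096 (adjusted p = 0.92), with a 95% interval from −0.17 to 0.21. In HCT-8/FU CM against HCT-8 CM it was −0.30 ± 0.0924 (adjusted p = 0.036), under the fold threshold, and its adjusted p was 0.078 with the correction.

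LEF1, which is scarce in normal intestinal epithelium, was at 6.45 and 8.81 CPM in HCT-8, 8.47 and 10.9 in resistant HCT-8/FU, 6.10 and 6.10 in HCT-8 CM, and 7.22 and 7.10 in HCT-8/FU CM. The conditioned media did not overlap, and all other neighbours in the order did. In HCT-8/FU against HCT-8 the difference was 0.24 ± 0.209 (adjusted p = 0.41) and between the conditioned media 0.23 ± 0.205 (adjusted p = 0.49). The 95% intervals reached from −0.17 to 0.65 and from −0.17 to 0.63, so a change past the fold threshold could not be told from none.

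ASCL2, a basic helix-loop-helix factor that controls the stem cell programme of the crypt, had another order of groups than LGR5. The gene lies on chromosome 11 from 2268498 to 2270588 (GRCh38, minus strand). It was at 7.77 and 5.14 CPM in HCT-8, 11.5 and 9.86 in resistant HCT-8/FU, 14.96 and 13.4 in HCT-8 CM, and 19.3 and 18.1 in HCT-8/FU CM. The groups did not overlap, and both groups in conditioned medium lay above HCT-8/FU. ASCL2 was 1.82-fold higher in HCT-8/FU than in HCT-8 (0.86 ± 0.199, adjusted p = 0.003), a call lost without HCT-8 replicate 2 (0.46, adjusted p = 0.17) and without HCT-8/FU replicate 1 (0.71, adjusted p = 0.087). It was 2.34-fold higher in HCT-8 CM (1.23 ± 0.194, adjusted p = 0.00046) and 3.11-fold higher in HCT-8/FU CM (1.64 ± 0.186, adjusted p = 2.1e-05), each against HCT-8. In HCT-8/FU CM against HCT-8 CM the difference was 0.41 ± 0.169 (adjusted p = 0.11).

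MYC, the proliferation factor and a classical target of beta-catenin in colon cancer, was at 244 and 242 CPM in HCT-8, 239.9 and 235 in resistant HCT-8/FU, 354 and 298 in HCT-8 CM, and 264 and 259.8 in HCT-8/FU CM. HCT-8 CM lay above all other libraries, and HCT-8 and HCT-8/FU differed by −0.032 ± 0.0809 (adjusted p = 0.80), with a 95% interval from −0.19 to 0.13. The sign of that small difference turned with the correction for GC content and length (0.061). MYC differed by 0.42 ± 0.0803 between HCT-8 CM and HCT-8 (adjusted p = 0.0019) and by −0.31 ± 0.0793 between the conditioned media (adjusted p = 0.012), both under the fold threshold. With the correction, the latter had an adjusted p of 0.12. Antisense genes that were also counted lie opposite exonic bases of RNF43 (TSPOAP1-AS1, 5.45%), LEF1 (LEF1-AS1, 5.20%) and TCF7L2 (ENSG00000233547, 4.45%). The same holds for MYC (CASC11, 3.18%) and NKD1 (ENSG00000205414, 0.386%). The sources used here do not give whether the counting used the strand.

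On the FDR alone, without the fold threshold, 5 of the 10 genes passed between the conditioned media (APC and LGR5 higher, AXIN2, TCF7L2 and MYC lower), where 19.7% of all genes passed. Against HCT-8, 6 passed in HCT-8 CM and 6 in HCT-8/FU CM, where 19.4% and 24.7% of all genes passed. In HCT-8/FU against HCT-8 it was the same 6 as with the fold threshold, where 36.7% of all genes passed.

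**Figure D2:**
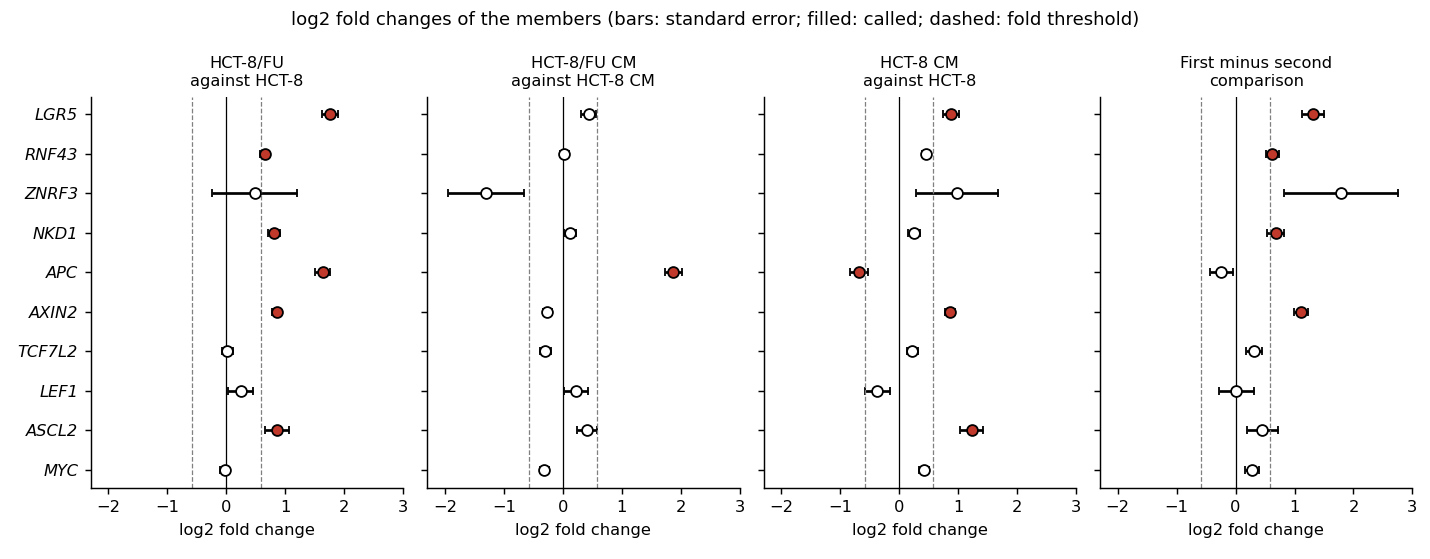
log2 fold changes of the 10 genes with their SE in 3 comparisons and, in the last panel, in the first minus the second, where filled points were called and dashed lines mark a log2 fold change of 0.58. LGR5 (1.75) and APC (1.63) lead the first panel, APC alone is filled in the second at 1.88, and LGR5, AXIN2, NKD1 and RNF43 are filled in the last.

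Whether the resistant line differed from HCT-8 by more than the medium of the resistant line differed from the medium of HCT-8 was tested as the first comparison minus the second. It was positive and called for LGR5 (1.32 ± 0.188, adjusted p = 0.00033), AXIN2 (1.11 ± 0.115, adjusted p = 2.2e-05), NKD1 (0.68 ± 0.142, adjusted p = 0.0054) and RNF43 (0.63 ± 0.104, adjusted p = 0.0011), where 3.55% of all genes were called positive and 4.14% negative. For these 4 genes the change in HCT-8/FU against HCT-8 exceeded the change between the media. The second comparison has HCT-8 CM as its baseline, so the difference also takes in the change from HCT-8 to HCT-8 CM. That change was 0.88 for LGR5, 0.86 for AXIN2, 0.25 for NKD1 and 0.45 for RNF43. The difference is thus not a measure of resistance alone. APC showed −0.24 ± 0.194 (adjusted p = 0.50), with a 95% interval from −0.63 to 0.14, so its changes in the 2 comparisons were not shown to differ. ASCL2 had 0.45 ± 0.261 (adjusted p = 0.33), MYC 0.28 ± 0.113 (adjusted p = 0.14) and TCF7L2 0.31 ± 0.133 (adjusted p = 0.16). RNF43's difference fell under the fold threshold without the filter on low counts (0.57), without HCT-8 replicate 2 (0.48) and without HCT-8 CM replicate 1 (0.58), as did that of NKD1 without HCT-8/FU replicate 2 (0.55).

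Per kilobase of exons, the scale on which genes can be set beside each other, MYC had the highest level over the groups (43.7 CPM per kb), followed by AXIN2 (40.0) and RNF43 (29.2). TCF7L2 (13.1) and ASCL2 (8.42) were intermediate, and NKD1 (3.45), LGR5 (3.37), APC (2.18) and LEF1 (1.43) were low. ZNRF3 was lowest at 0.163. Among the 19857 tested genes with a known exonic length, MYC stood at the 95.7th percentile, LGR5 at the 49.3rd and ZNRF3 at the 6.77th. The lengths take in all exons of GENCODE 44, expressed or not, while the counts were on Ensembl release 94. The order of the genes depends on these lengths. The levels above are means over groups that differ, and the order changed between groups. In HCT-8/FU, AXIN2 (47.0 CPM per kb) lay above MYC (38.86) and LGR5 (5.23) above NKD1 (4.67), whereas in HCT-8 AXIN2 (26.0) lay below MYC (39.8) and LGR5 (1.54) below NKD1 (2.62).

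**Figure D3:**
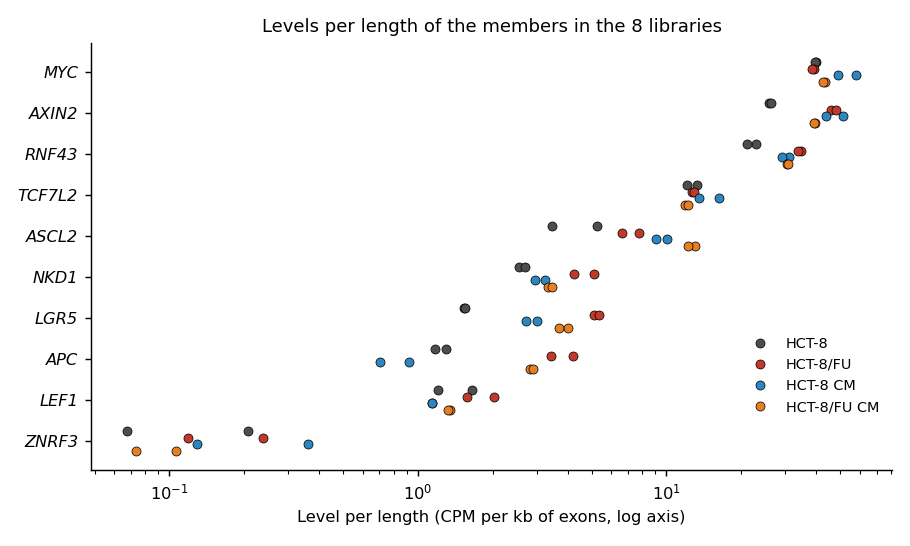
Levels per length (CPM per kb of exons, log axis) of the 10 genes in the 8 libraries, 1 point per library, coloured by group. The genes span from 0.163 (ZNRF3) to 43.7 CPM per kb (MYC) as means over the groups, and the groups of LGR5, APC and ASCL2 lie further apart than those of TCF7L2.

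Over all genes, changes followed the GC content of the exons. The Spearman correlation across 19857 genes was −0.397 in HCT-8/FU against HCT-8, −0.398 between the conditioned media and 0.301 in HCT-8 CM against HCT-8, as a description, since genes are not independent. Among the 10 genes, APC had the lowest GC content (40.5%), followed by LGR5 (43.2%), and ASCL2 had the highest (69.6%). Genes of 40% to 45% GC had a median log2 fold change of 0.24 in HCT-8/FU against HCT-8 and 0.14 between the conditioned media. With the correction, APC was 1.11 and 1.36 in these comparisons and was called in both (adjusted p = 1.3e-05 and 8.3e-05). All 6 calls in HCT-8/FU were kept: LGR5 at 1.51, AXIN2 at 1.04, ASCL2 at 0.90, NKD1 at 0.82 and RNF43 at 0.72 beside APC.

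The correction also moved the balance of calls over all genes. In HCT-8/FU against HCT-8 it gave 1442 higher and 1753 lower, where the main fit gave 2677 and 1648. In HCT-8/FU CM against HCT-8 CM it gave 555 and 468 in place of 1619 and 259, and in HCT-8/FU CM against HCT-8 846 and 975 in place of 1454 and 666. Taking HCT-8 CM replicate 2 as the TMM reference library, chosen with the data in view, gave 3166 and 1192 in the first comparison and 1856 and 430 in HCT-8/FU CM against HCT-8. DESeq2's size factors gave 617 and 1088 in HCT-8 CM against HCT-8, and DESeq2 itself 525 and 969, in place of 783 and 872.

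**Figure D4:**
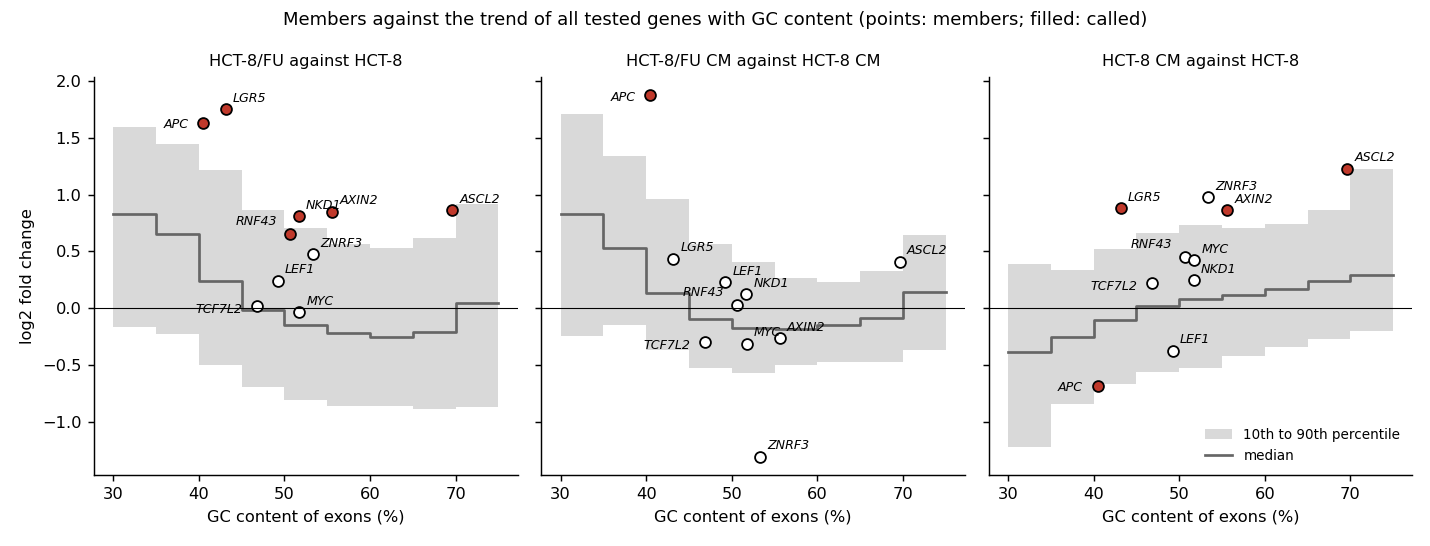
log2 fold change of the 10 genes against the GC content of their exons, with the median and the 10th to 90th percentile of all tested genes in bins of 5 percentage points of GC content, filled where called. APC (40.5% GC), LGR5 (43.2%), NKD1, AXIN2 and ASCL2 lie above the band in the first panel, APC and ASCL2 (0.41) do in the second, where ZNRF3 (−1.31) is below it, and LGR5, ZNRF3, AXIN2 and ASCL2 do in the third, where APC (−0.68) is just below it.

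The genes whose pattern over the 8 libraries was most like that of APC and of LGR5, the members of the widest range, were sought among 12501 genes of at least 5 CPM, by the root mean square difference of log2(CPM + 0.5) after centring. Nearest to APC were ASPM (0.101), DMXL2 (0.116) and KIF20B (0.120), where the range of APC over groups was 2.19. ASPM, a spindle pole protein, had group means of 31.4 CPM in HCT-8, 109 in resistant HCT-8/FU, 22.6 in HCT-8 CM and 73.0 in HCT-8/FU CM. Nearest to LGR5 were NUP50 (0.0581), MID1 (0.0796) and CNTNAP2 (0.0846), where the range of LGR5 was 1.70. NUP50, a nuclear pore protein, had means of 143, 459, 267 and 355 CPM in the same order of groups. These levels were without the correction for GC content and length, and the part of the GC trend in the likenesses was not tested.

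Beyond the 10 genes, 112 genes of the pathway were listed by role, and 86 of them were tested. In HCT-8/FU against HCT-8, 16 were called higher and 7 lower, with a median log2 fold change of 0.13 (0.00817 over all tested genes), where 13.2% of all tested genes were called higher and 8.12% lower. Of the same genes, 5 were called higher and 0 lower between the conditioned media (median −0.096, and −0.0592 over all genes), where 7.97% and 1.28% of all genes were. In HCT-8 CM against HCT-8, 13 were called higher and 4 lower (3.86% and 4.29% of all genes), and in HCT-8/FU CM against HCT-8, 14 and 2 (7.16% and 3.28% of all genes). The same shares of all genes are the background of each role below, where the lists are small and every count is a description.

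Of the Wnt ligands, 12 of 19 were tested, and 2 were higher and 1 lower in the resistant line. WNT11, a ligand known mainly for beta-catenin-independent signalling, was at 8.16 and 7.12 CPM in HCT-8, 15.7 and 14.9 in resistant HCT-8/FU, 16.2 and 15.2 in HCT-8 CM, and 15.1 and 17.4 in HCT-8/FU CM. HCT-8 alone was low, and WNT11 was higher in HCT-8/FU (1.04 ± 0.161, adjusted p = 0.00011). WNT3, a canonical ligand, was higher at 0.67 ± 0.222 (adjusted p = 0.027), a call lost in DESeq2 (adjusted p = 0.071), without the filter on low counts (0.06) and without HCT-8 replicate 1 (adjusted p = 0.072), HCT-8 replicate 2 (0.15), HCT-8/FU replicate 1 (0.34) or either replicate of HCT-8/FU CM (0.063 and 0.064). WNT5B, a non-canonical ligand, was lower (−0.80 ± 0.187, adjusted p = 0.0031), and its call was lost with the correction for GC content and length (−0.57) and without HCT-8/FU replicate 1 (adjusted p = 0.073). Of the 12 ligands, 0 were called between the conditioned media. The ligand release genes PORCN and WLS were not called in any comparison.

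Of the receptors and co-receptors, 12 of 15 were tested, and 5 were higher in HCT-8/FU and 3 between the conditioned media (13.2% and 7.97% of all genes), with 0 lower in either. FZD3, a Frizzled receptor, was at 8.82 and 9.28 CPM in HCT-8, 26.2 and 26.4 in resistant HCT-8/FU, 9.32 and 8.63 in HCT-8 CM, and 18.5 and 18.0 in HCT-8/FU CM. Its log2 fold change was 1.53 ± 0.139 in the first comparison (adjusted p = 7.3e-07) and 1.04 ± 0.136 in the second (adjusted p = 6.1e-05), and these were 0.71 and 0.19 after correcting for GC content and length (adjusted p = 0.0012 and 0.45). LRP6, the Wnt co-receptor, was higher by 1.06 ± 0.104 and 0.80 ± 0.103, which with the correction were 0.59, just past the fold threshold, and 0.36. FZD1 was higher in HCT-8/FU (0.88 ± 0.269, adjusted p = 0.018), but not without HCT-8 replicate 1 (adjusted p = 0.077), HCT-8 replicate 2 (0.074) or replicate 2 of HCT-8/FU (0.10). ROR1, a receptor of non-canonical ligands, was higher between the conditioned media (0.80 ± 0.182, adjusted p = 0.0056), a call lost without HCT-8 CM replicate 2 or HCT-8/FU CM replicate 1. It was called lower in HCT-8 CM than in HCT-8 (−0.65 ± 0.191, adjusted p = 0.025), which was lost with the correction for GC content and length. In HCT-8/FU CM it was not called against HCT-8 (0.15 ± 0.174, adjusted p = 0.60).

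Of the R-spondin axis, LGR4 and 1 other of 6 genes were tested. LGR4, the paralogue of LGR5 with broad expression, was at 85.4 and 80.4 CPM in HCT-8, 173 and 182 in resistant HCT-8/FU, 129 and 100.2 in HCT-8 CM, and 148 and 142 in HCT-8/FU CM. The groups did not overlap and stood in the same order as those of LGR5. LGR4 was higher in HCT-8/FU (1.10 ± 0.102, adjusted p = 9.3e-07). RSPO1 and RSPO2 had 0 counts in all libraries, and RSPO3 had 3, 4 and 3 counts in the 3 libraries with the most records not aligned and 0 in the other 5. The same split, chosen after the values were seen, was found for the secreted inhibitors SFRP1 (2, 2 and 6 counts against 0) and DKK1 (3, 7 and 8 counts against 0 to 2). In all, 5 genes had at least 2 counts in each of these 3 libraries and 0 in the other 5, and what these records were was not tested. Of the secreted inhibitors, 6 of 12 were tested and 1 was called in HCT-8/FU, APCDD1 at 0.71 ± 0.17 (adjusted p = 0.0041), which fell under the fold threshold without HCT-8/FU replicate 2 (0.54).

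All 16 listed genes of the destruction complex and Dishevelled were tested. In HCT-8/FU 1 was lower, GSK3A, a kinase of beta-catenin (−0.66 ± 0.117, adjusted p = 0.0004), which was under the fold threshold with the correction (−0.48), without HCT-8/FU replicate 1 (−0.53) and with HCT-8 CM replicate 2 as the TMM reference (−0.57). Another 1 was higher between the conditioned media, TNKS2, a tankyrase that targets axins for degradation (0.74 ± 0.0923, adjusted p = 4.1e-05), which was under the fold threshold with the correction (0.42) and just so without HCT-8 CM replicate 2 (0.58). None of the 16 was called in both of these comparisons, as APC was, but TNKS2 had the same order of groups as APC. Its means were 85.3 CPM in HCT-8 CM, 114 in HCT-8, 141 in HCT-8/FU CM and 169 in HCT-8/FU. The highest log2 fold change of the 16 in the first comparison was 0.57, just under the fold threshold. Of the nuclear effectors, 13 of 14 were tested and 1 was called, BCL9L, a beta-catenin co-activator, lower in HCT-8/FU (−0.74 ± 0.0989, adjusted p = 2.9e-05) and under the threshold with the correction (−0.57). CTNNB1, which encodes beta-catenin, ranged from 275 to 318 CPM over the 8 libraries.

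Among 15 other Wnt targets, 4 were higher and 3 lower in the resistant line, 1 was higher between the conditioned media, and 7 were higher and 1 lower in HCT-8 CM against HCT-8. Over all genes, 13.2% were higher and 8.12% lower in the first of these, 7.97% higher in the second, and 3.86% higher and 4.29% lower in the third. SLC12A2, a chloride co-transporter of crypt cells, was at 142 and 143 CPM in HCT-8, 506 and 513 in resistant HCT-8/FU, 193 and 174 in HCT-8 CM, and 358 and 358 in HCT-8/FU CM. It was 1.84 ± 0.0736 higher on the log2 scale in HCT-8/FU (adjusted p = 6.8e-10) and 0.97 ± 0.0715 between the conditioned media (adjusted p = 6.4e-07), and the correction left 1.23 and 0.37. TNFRSF19 (1.71 ± 0.351, adjusted p = 0.0013) and CD44, an adhesion receptor (1.06 ± 0.24, adjusted p = 0.0026), were higher in HCT-8/FU, and both calls were lost without HCT-8/FU replicate 1 (adjusted p = 0.11 and 0.062), that of CD44 also without HCT-8 replicate 2 (0.11). JUN, an AP-1 factor (−1.09 ± 0.138, adjusted p = 1.7e-05), TDGF1, a NODAL co-receptor (−0.81 ± 0.149, adjusted p = 0.00052), and PPARD, a nuclear receptor (−0.62 ± 0.11, adjusted p = 0.00037), were lower. PPARD was under the fold threshold with the correction (−0.39), without HCT-8/FU replicate 1 (−0.53) and with the other TMM reference (−0.53).

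Of 13 further intestinal stem cell genes, 8 were tested, and 3 were higher and 1 lower in the resistant line (13.2% and 8.12% of all genes), while 0 were called between the conditioned media. OLFM4, which marks human crypt base cells, and HOPX, a marker of reserve stem cells, had 0 counts in all libraries. A count of 0 allows a level of up to 3 counts, 0.0886 to 0.501 CPM from the deepest to the shallowest library, for counting error only. CDCA7 was at 27.9 and 29.7 CPM in HCT-8, 83.7 and 95.9 in resistant HCT-8/FU, 65.3 and 66.0 in HCT-8 CM, and 66.3 and 65.0 in HCT-8/FU CM. It was higher in HCT-8/FU (1.62 ± 0.0963, adjusted p = 2e-08), and the conditioned media overlapped. ID1, an inhibitor of helix-loop-helix factors, was higher as well (1.61 ± 0.152, adjusted p = 1e-06). TERT, the catalytic subunit of telomerase (1.31 ± 0.368, adjusted p = 0.011), rested on 9 to 119 counts and was lost without HCT-8 replicate 2 (adjusted p = 0.062) or replicate 1 of HCT-8/FU (0.074). MSI1, an RNA-binding protein (−0.61 ± 0.211, adjusted p = 0.035), was lost in DESeq2 (0.057), with the correction (0.21), with the other TMM reference (0.074) and without HCT-8 replicate 1 (0.084), HCT-8 replicate 2 (0.12) or replicate 2 of HCT-8/FU (0.13).

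**Figure D5:**
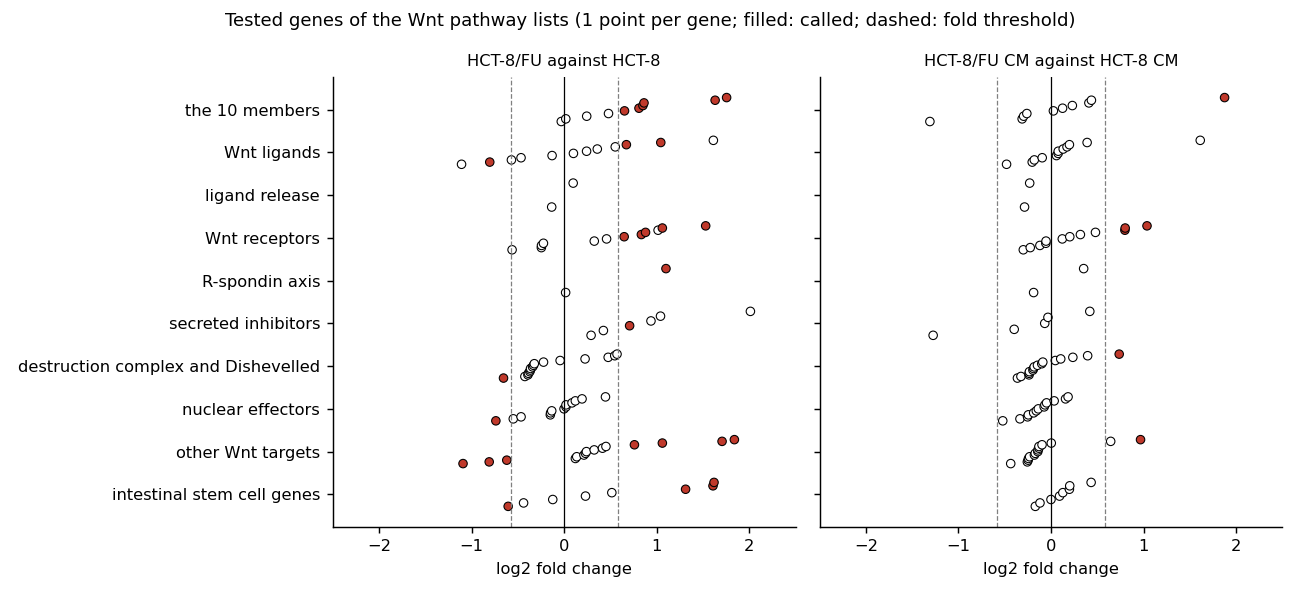
log2 fold changes of the 10 genes and of the tested genes of 9 pathway lists in HCT-8/FU against HCT-8 and in HCT-8/FU CM against HCT-8 CM, 1 point per gene, filled where called, with dashed lines at a log2 fold change of 0.58 (DKK1, with 8 and 1 counts in HCT-8 CM and 0 in HCT-8/FU CM, lies outside the axis of the second panel). In the first panel 16 list genes are filled on the right and 7 on the left, and in the second 5 and 0.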

How the data were processed

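The authors aligned paired reads of captured mRNA to GRCh38 with HISAT2, handled the alignments with SAMtools 1.18 and counted them per gene with HTSeq 0.11.2 on Ensembl release 94. The deposited files hold raw counts for 64253 genes in each of 8 libraries. Records assigned to no gene, 59.2% to 70.3% of each library, entered neither totals nor tests. The authors also deposited DESeq2 1.30.0 tables of their comparisons, with log2 fold changes and p-values, which were not used here.

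Groups came from the sample titles. Tests were run with edgeR 4.0.16 in R 4.3.3 (TMM, filterByExpr, quasi-likelihood F test on 4 group means over all 8 libraries). The standard error was taken as |log2 fold change| over the square root of the F statistic, and 95% intervals are normal ones from them. GC content, exonic length and positions came from GENCODE 44 on the same build, with 56105 of the identifiers found and 19857 of 20305 tested genes covered. The correction for GC content and length is an offset per library from a spline with 5 degrees of freedom, and it removes any change that follows these properties, whatever its origin. Within groups, replicates differed by more than sampling noise (median chi-square per gene 1.02 to 2.30 against 0.455).

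The 10 genes and the pathway lists were chosen with earlier results of these data known. List genes were named where they were among the 3 largest called changes in a direction in the first or second comparison, had a mean of at least 1 CPM and groups that did not overlap. Alternatives were DESeq2's size factors, no filter on low counts, a mean of 10 normalized counts, DESeq2 1.42.0, a fit of only the groups being compared, a replicate block, the FDR alone, the correction without and with that block, and omission of each library. Once the data had been seen, a term for the 3 libraries with over 15% not aligned and another TMM reference were added. Tested on simulated data, the fit recovered 81% of genes changed by a log2 fold change of 1 and 99% at 2 in the first comparison, with 15 false calls among 19807 genes tested. In that simulation 100 genes were changed at each size, in equal numbers up and down, so the 15 false calls stand beside at most 100 true calls at each size. They were drawn from genes above a minimum level, and no GC trend was simulated. The figures thus do not cover genes as low as ZNRF3 or changes that follow GC content.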

Additional observations from a re-analysis of the deposited data

Results flagged for a closer look

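The change in HCT-8/FU against HCT-8 and the change in HCT-8/FU CM against HCT-8 CM differed, by the test of that difference within edgeR's fit, for 4 of the 10 genes. These were LGR5 (1.32 on the log2 scale), AXIN2 (1.11), NKD1 (0.68) and RNF43 (0.63), each with the larger value in the first comparison. In HCT-8 CM, the baseline of the second comparison, these genes stood above HCT-8 by 0.88, 0.86, 0.25 and 0.45, which enters the difference. Of the 86 tested list genes, the difference was called positive for 10 and negative for 4, where 3.55% and 4.14% of all genes were. The list genes named above were picked for large changes in the first or second comparison. The sign of their difference was thus partly set by that choice, and their values are a description. Among them, the difference was called positive for WNT11 (0.98), WNT3 (1.15), LGR4 (0.75), SLC12A2 (0.87), CD44 (1.06), CDCA7 (1.62) and ID1 (1.41). It was called negative for WNT5B (−0.94), JUN (−0.85) and TDGF1 (−0.71). The adjusted p of CD44 was 0.048, and with the correction for GC content and length it was 0.054. No group had the 4 replicates that a test for a single outlying library needs.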

How the results depend on the processing

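Of the log2 fold changes of the 10 genes under the alternatives, 920 kept their side of the thresholds, 9 were newly called and 11 fell short, and no called value changed sign. Of the 9, only ZNRF3 between the conditioned media, without HCT-8 CM replicate 2, passed both thresholds newly. The others kept their values and were called because the setting with the FDR alone drops the fold threshold. Leaving out 1 library at a time gave 4 to 6 called in HCT-8/FU against HCT-8, 1 to 2 between the conditioned media, 3 to 4 in HCT-8 CM against HCT-8, 4 to 4 in HCT-8/FU CM against HCT-8 and 3 to 4 for the difference of the first and second comparisons. The 2 between the conditioned media came without HCT-8 CM replicate 2, with ZNRF3 added. With the FDR alone, 5 of the 10 genes passed between the conditioned media, and 7442, 4005, 3949, 5017 and 2350 of all genes passed in the 5 comparisons, against 4325, 1878, 1655, 2120 and 1561 with the fold threshold. The correction for GC content and length left 1023 of all genes between the conditioned media, and 972 with the replicate block, which in HCT-8 CM against HCT-8 left 1100. A term for the 3 libraries with over 15% not aligned, chosen with the data in view, left the counts of called members at 6, 1, 4, 4 and 4.

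The replicate numbers were not shown to pair the libraries, since same-numbered deviations from the group means correlated at −0.123 to 0.132 and the labels give no shared batch. With the replicate block, 6, 1, 4, 4 and 4 of the 10 genes were called, as without it, and 4180, 1816, 1595, 2052 and 1523 of all genes. With 2 replicates a group and 5804124 counts in the shallowest library, low genes such as ZNRF3 could not be resolved.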
